A study of Cucumis x hytivus and Cucumis hystrix and Cucumis sativus with 8 samples.

Results

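The miRNA families miR159 and miR319 were followed through leaves of Cucumis ×hytivus, a man-made allotetraploid, and of the diploids that it combines. Members were all entries of the deposited miRNA table named miR159 or miR319, with each mature sequence taken once: 23 of 733 sequences, 14 of them miR159 and 9 miR319. The table has values for 8 samples, 2 in each of 4 groups, called libraries here. The allotetraploid was in its selfed generation S10 and was sampled as young leaf (counted from the top, the uppermost) and as mature leaf (the first that was fully grown). The parents, C. hystrix and the cucumber C. sativus ‘BeijingJietou’, both diploid, were sampled as mature leaf, and the plants were raised in climate chambers. Young leaves were taken only from the allotetraploid, and the age of a leaf and its place on the plant cannot be told apart. The protocol in the labels speaks of 4 libraries although 8 samples are given, and nothing states that the samples of a group came from separate plants or separate libraries. Each SD (n = 2) and p-value therefore speaks only of spread among these samples, which may be technical. No miRNA defines leaf tissue, so the tissue label was not checked by a marker.

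miR159 and miR319 are among the oldest plant miRNAs and share most of their letters, but they guide Argonaute to different messages. miR159 holds down GAMYB-like MYB transcription factors, which in Arabidopsis stunt growth when released in vegetative tissue. miR319 holds down TCP transcription factors of the CINCINNATA class, which slow cell division as a leaf matures, and it thereby sets leaf size, flatness and margin shape. In both families the functional strand comes from the 3′ arm of an unusually long hairpin that is cut several times from the loop end, and the 5′ arm leaves a partner strand and other fragments that are usually degraded.

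The sequences are shown because the members differ by a few letters that set family and form. They are printed 5′ to 3′ as the table writes them, with T for U, and capitals mark the seed (bases 2 to 8), the stretch that the families are compared on here. The miR159 forms come first.
20-nt miR159a: tTTGGATTgaagggagctct
21-nt miR159a: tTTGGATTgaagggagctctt
22-nt miR159b: tTTGGATTgaagggagctcttt
miR159b beginning with A: aTTGGATTgaagggagctct
miR159b ending in CC: tTTGGATTgaagggagctcc
The seed TTGGATT was carried by 9 members, and outside the families by 1 sequence alone, an 18-nt entry of miR5368, a family on the list of RNA fragments used below. The 21-nt miR159a equals the 20-nt miR159a with 1 more base at its 3′ end, and the 22-nt miR159b equals it with 2 more bases, so these entries form a length series of one sequence under different names. The entry beginning with A differs from 20-nt miR159a by T1A and the one ending in CC by T20C, counting from the 5′ end of miR159a. A second miR159 seed, TTGGTTT, was carried by 2 rare members, which share the substitution A6T.
miR159c: tTTGGTTTgaagggagctct
miR159e-3p: aTTGGTTTgaagggagctcta
The miR319 sequences begin 1 base further in, which moves their seed.
miR319a: tTGGACTGaagggagctccc
miR319c: tTGGACTGaagggagctcct
miR319p: tTTGGACTgaagggagctcct
miR319a-3p: cTTGGACTgaagggagctcctt
The seed TGGACTG was carried by 4 members and by no entry outside the families. miR319a and miR319c differ from each other by C20T, with positions counted from the 5′ end of miR319a. Aligned with a shift of 1 base, each differs from 20-nt miR159a at 2 of 19 positions, T7C and T20C in the numbering of miR159a. miR319p and miR319a-3p hold all 20 bases of miR319c behind 1 extra base at the 5′ end, which gives them the seed TTGGACT. The entry miR159b ending in CC has 1 mismatch with either miR319 over the same 19 positions (C6T in the numbering of miR319), so of the tested miR159 entries it is the closest to miR319.

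The opposite arm gave 6 members, printed because each is listed at a single hairpin, while miR319a and miR319c are listed at 2 each.
miR159a-p5: gAGCTCCTtgaagtccaatag
miR159a-5p: aGCTCCTTgaagtccaatt
miR159b-p5: tGCTGCGAgttcatgaatacc
miR319a-p5: aGAGCTTTcttcagtccactc
miR319c-p5: aACTGCCGactcattcactca
miR319d-p5: tGCTGCTCattcgttagttct
Listed hairpins fell on 9 separate intervals, 5 for miR159 and 4 for miR319. The coordinates are those of the table, of unstated genome build, and no gene annotation was used. The 20-nt miR159a and miR159a-p5 were listed at chr1:4427165-4427374, plus strand, and both 20-nt miR159b entries and miR159b-p5 within chr3:6905109-6905300, plus strand. Those 2 miR159b entries differ from each other by letters (T1A in one and T20C in the other, against 20-nt miR159a). Their placement is that of the table and does not show where the reads came from. All 4 miR319 intervals lay on chromosome 5, plus strand. miR319a was listed at chr5:23952489-23952681 and at chr5:4663060-4663248. miR319c was listed at chr5:19951203-19951405 together with miR319d-p5, and at chr5:10279774-10280014 together with miR319c-p5. miR319a-3p was placed by the table in a miR319a interval, although its letters match miR319c. The 22-nt miR159b had no listed position, as had 5 other members.

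The libraries held 99196 to 464306 reads of listed sequences, each sequence counted once, and showed 335 to 562 of 733 entries. C. sativus 2 stood apart: it was the shallowest, and entries of families whose listed sequences match ribosomal or transfer RNA took 58% of its reads, against 6.19% and 6.81% in the young leaves and 11.1% to 17.4% in the 5 other mature libraries. For the comparisons with C. sativus, values without this library are given for the calls and for the members tested in full. Levels are in CPM (edgeR), read counts relative to library sizes scaled between libraries by the TMM method. The scaling factor was 2 for C. sativus 2, against 0.762 to 1.25 for the others, which lowers each CPM of that library. Fold differences in CPM between the C. sativus libraries include it. In whole leaves, fewer cells that make a miRNA and less of it per cell cannot be told apart. Of the 23 members, 11 passed the filter on low counts (6 miR159 and 5 miR319), and these alone were tested.

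A single sequence made up nearly all of miR159. The 20-nt miR159a was at 318401 and 402463 CPM in young leaves and at 217627 and 481624 CPM in mature allotetraploid leaves. It was at 220220 and 305028 CPM in C. hystrix and at 368651 and 26940 CPM in C. sativus. Young leaves thus had the highest mean, 360432 ± 59441 CPM (SD, n = 2), before mature allotetraploid leaves with 349626 ± 186674, C. hystrix with 262624 ± 59968 and C. sativus with 197796 ± 241626 CPM. No neighbours in that order were apart by more than the spread of their libraries. The 2 C. sativus libraries differed 13.7-fold, and the order turns on them: without C. sativus 2, C. sativus stood at 368651 CPM, above the means of the 3 other groups. The 21-nt miR159a, at 6881 and 7596 CPM in young, 3762 and 8543 in mature allotetraploid leaves, 4287 and 5164 in C. hystrix, with 5291 and 657.9 CPM in C. sativus, followed the 20-nt form closely. Both were lowest in C. sativus 2.

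The rarer miR159 entries did not all follow. miR159b beginning with A, listed at the chromosome 3 hairpin, had 613.3 and 1006 CPM in young leaves, 667.3 and 1002 CPM in mature allotetraploid leaves, 170.1 and 695.5 CPM in C. hystrix, but 316.4 and 75.92 CPM in C. sativus. Both C. sativus libraries lay below all 4 allotetraploid libraries in CPM. Of its sum with 20-nt miR159a, it made up 0.193% and 0.249% in young and 0.306% and 0.208% in mature allotetraploid leaves. In C. hystrix it made up 0.0772% and 0.228%, and in C. sativus 0.0858% and 0.281%. By that share C. sativus 2 lay among the allotetraploid libraries, on 15 reads (exact binomial interval 0.157% to 0.463%). For that library the gap in CPM was thus not a separate one for this entry. C. sativus 1, at 0.0858% (0.0693% to 0.105%), lay below all 4 allotetraploid libraries by share, as did C. hystrix 1. In C. sativus 1 the gap was not matched by 20-nt miR159a, which at 368651 CPM lay among the allotetraploid libraries. miR159b ending in CC, listed on the same hairpin, had a narrow range, at 238.2 and 268.2 CPM in young, 331.4 and 535.7 in mature allotetraploid leaves, 226.8 and 424.4 in C. hystrix, with 208.7 and 131.6 CPM in C. sativus. The 22-nt miR159b was at 1409 and 1283 CPM in young, 828.6 and 2717 in mature allotetraploid leaves, 1134 and 1709 in C. hystrix, with 935.7 and 4297 CPM in C. sativus. Here C. sativus 2 was the highest of all libraries. miR159a-p5, the strand from the 5′ side of the miR159a hairpin, was at 375.1 and 355.6 CPM in young leaves, 116.4 and 114.8 in mature allotetraploid leaves, 138.2 and 112 in C. hystrix, with 208.7 and 334 CPM in C. sativus. In CPM, young leaves were above every mature library for this strand, and C. sativus was above the other mature groups. The place of C. sativus 2 below young leaves turns on its scaling factor of 2. It had 66 of 99196 listed reads, against 148 of 464306 and 122 of 377442 in young leaves. Relative to listed-read totals, C. sativus 2 was thus the highest.

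miR319 was carried by a pair of sequences of similar abundance. miR319a was at 3888 and 5087 CPM in young, 3574 and 2202 in mature allotetraploid leaves, 1385 and 2010 in C. hystrix, with 3551 and 86.04 CPM in C. sativus. miR319c was at 2684 and 3798 CPM in young, 3753 and 3461 in mature allotetraploid leaves, 1619 and 3501 in C. hystrix, with 2117 and 30.37 CPM in C. sativus. Both were lowest in C. sativus 2, which had 17.17 reads of miR319a and 5.667 of miR319c, and C. sativus 1 was 41.3-fold and 69.7-fold higher. Ordered by mean, miR319a stood at 4487 ± 848 CPM (SD, n = 2) in young and 2888 ± 970 in mature allotetraploid leaves, then at 1819 ± 2450 in C. sativus and 1698 ± 442 in C. hystrix. Its libraries did not overlap between young and mature allotetraploid, nor between mature allotetraploid and C. hystrix, whereas the C. sativus libraries, at 3551 and 86.04 CPM, lay on either side of C. hystrix. Without C. sativus 2, C. sativus stood above the mean of mature allotetraploid leaves in that order. miR319a-3p was at 131.8 and 250.7, 210.5 and 76.53, 63.77 and 123.8, and 131.3 and 0 CPM in the same order of groups as miR319c. The 0 in C. sativus 2 allows up to 15.2 CPM (3 reads, counting error only).

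The 5′ side strands separated the 2 hairpins that share miR319c. miR319d-p5 was at 157.1 and 227.4 CPM in young, 120.9 and 80.01 in mature allotetraploid leaves, 35.43 and 70.73 in C. hystrix, with 373.6 and 20.24 CPM in C. sativus. miR319c-p5 was at 185 and 145.7 CPM in young, 13.44 and 80.01 in mature allotetraploid leaves, 49.6 and 58.94 in C. hystrix, with 33.66 and 40.49 CPM in C. sativus. C. sativus 1 thus had 111 reads of miR319d-p5 against 10 of miR319c-p5, and mature allotetraploid 1 had 27 against 3, while the 6 other libraries had between 0.5 and 1.56 reads of the former for each read of the latter. The imbalance was thus seen in 1 library of either group and not in its partner.

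**Figure D1:**
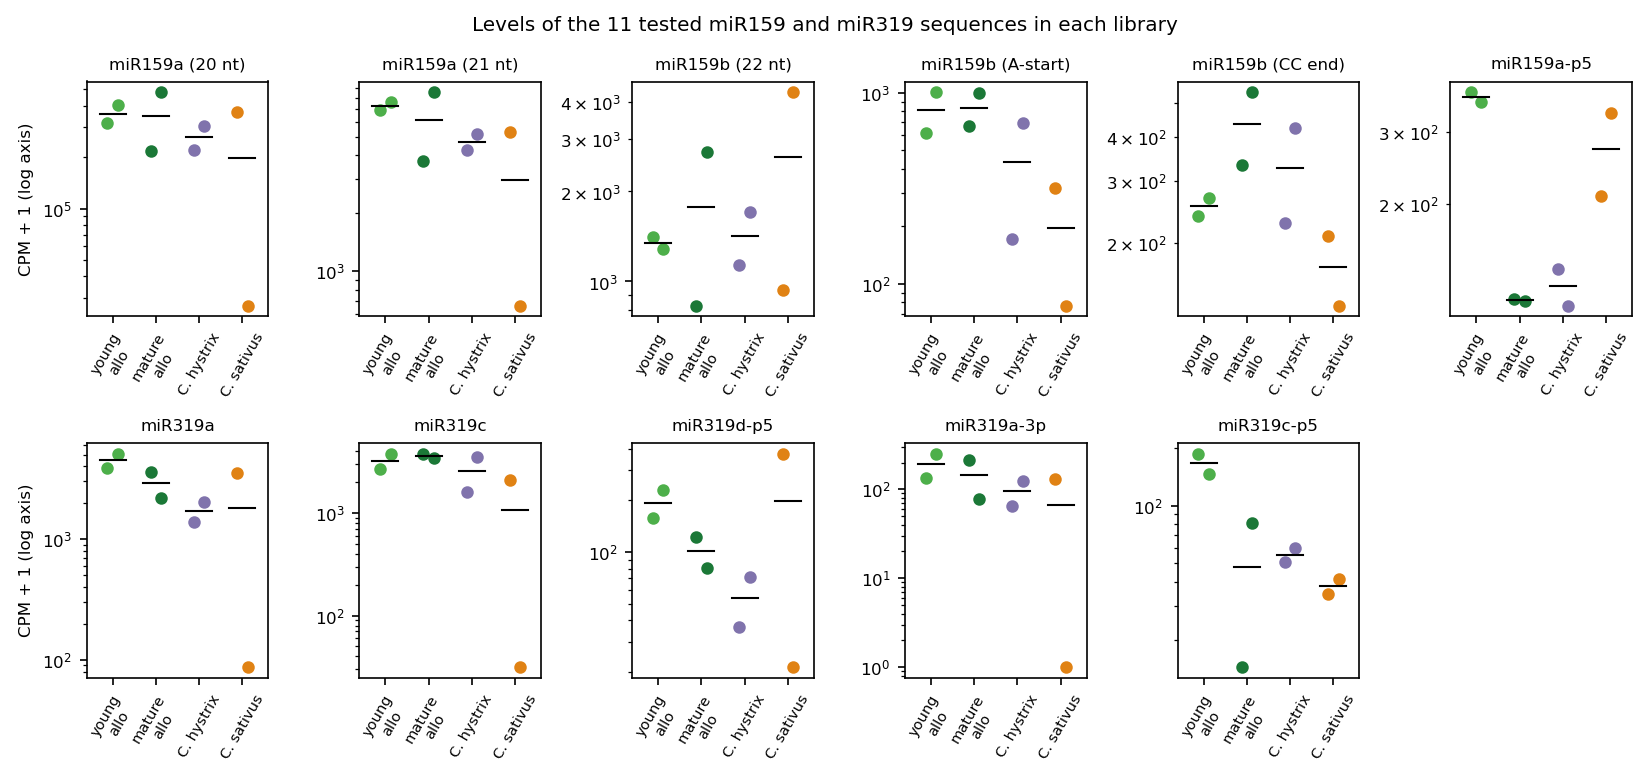
Levels in CPM plus 1 (log axis, each panel with its own range) of the 11 tested members, with 1 point per library, grouped by leaf and species, and a black line at the mean of the 2 libraries. The lower C. sativus point of the 20-nt miR159a, miR319a and miR319c panels is C. sativus 2, which is the upper one for 22-nt miR159b.

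Within miR159 the make-up of the family was steady in 7 libraries and different in 1. The 20-nt miR159a took 97.1% to 98.1% of miR159 reads in 7 libraries and 83% in C. sativus 2 (95% exact binomial interval 82% to 83.9%). The 22-nt form took 0.429% and 0.311% in young, 0.372% and 0.549% in mature allotetraploid leaves, 0.501% and 0.546% in C. hystrix leaves and 0.249% in C. sativus 1, but 13.2% in C. sativus 2 (12.4% to 14.1%). The 21-nt form, which is shorter by 1 base, stayed between 1.41% and 2.1% in all 8 libraries. So the longer form stood out in that library by its share and by its reads, 848.8 against 185.3 to 781.2 elsewhere, although the library was the shallowest. Intervals cover counting error only, and shares between sequences listed at different numbers of loci may rest on reads divided between loci, a rule that the sources leave unstated. The 58% of RNA fragment reads in C. sativus 2 goes with this result, and their part in it was not tested.

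The share of the 5′ side strand differed by leaf and library as well. miR159a-p5 made up 0.118% and 0.0883% of the sum of itself and 20-nt miR159a in young leaves, 0.0535% and 0.0238% in mature allotetraploid leaves and 0.0627% and 0.0367% in C. hystrix. It made up 0.0566% in C. sativus 1 and 1.22% in C. sativus 2 (0.948% to 1.56%). Young leaves were above the mature libraries other than C. sativus 2. The two-sided exact permutation test of young against mature allotetraploid shares gave p = 0.333, the smallest p that 2 against 2 libraries allow.

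**Figure D2:**
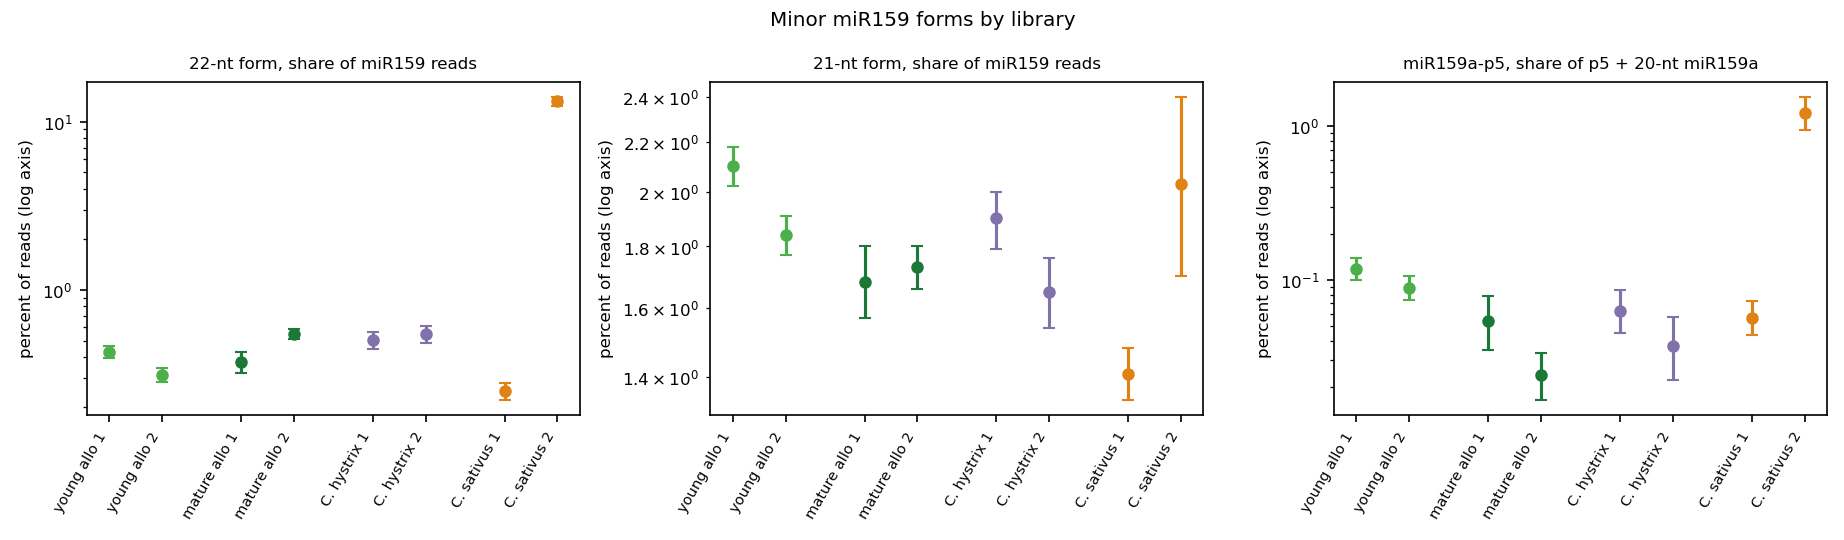
Minor miR159 forms as a percentage of reads (log axis) in each of the 8 libraries, with 95% exact binomial intervals as bars. C. sativus 2 stands at 13.2% for the 22-nt form and 1.22% for miR159a-p5, whereas its 21-nt share of 2.03% lies in the range of the other libraries.

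The balance of miR319a and miR319c does not depend on library scaling, since both were counted in the same library, and each was listed at 2 loci. miR319a made up 59.2% and 57.2% of the pair in young leaves, 48.8% and 38.9% in mature allotetraploid leaves, 46.1% and 36.4% in C. hystrix, compared with 62.6% and 75.2% for C. sativus. The last value rests on 22.8 reads (interval 51.6% to 89.8%), and the 62.6% of C. sativus 1 alone also lay above both young libraries and the mature libraries of the other groups. Mature allotetraploid and C. hystrix leaves overlapped, and both lay below C. sativus and below young allotetraploid leaves. The difference of means was 14.4 percentage points between young and mature allotetraploid leaves and −25.1 points between mature allotetraploid and C. sativus, each with p = 0.333 in a two-sided exact permutation test, the smallest p possible here. Between mature allotetraploid and C. hystrix it was 2.6 points (exact permutation p = 0.667). These tests could not reach 0.05, and the values were chosen for display after they had been seen.

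The 5′ side strands of the miR319c hairpins also took a larger share in young than in mature allotetraploid leaves. miR319d-p5 and miR319c-p5 together made up 11.3% and 8.94% of their sum with miR319c in young leaves, 3.46% and 4.42% in mature allotetraploid leaves, 4.99% and 3.57% in C. hystrix, compared with 16.1% and 67.9% for C. sativus. The last rests on 17.7 reads (interval 41% to 86.7%). Young and mature allotetraploid libraries did not overlap (exact permutation p = 0.333, the smallest possible), and this was the same direction as for miR159a-p5. The 2 kinds of share are not alike, however. miR159a-p5 pairs by its letters with miR159a, whereas miR319d-p5 and miR319c-p5 do not pair so with miR319c. By CPM, 64.4% of all tested sequences did not overlap between young and mature allotetraploid leaves. miR319 as a whole was 2.11% and 2.27% of the reads of both families in young, 3.33% and 1.18% in mature allotetraploid leaves, 1.38% and 1.82% in C. hystrix, with 1.64% and 0.571% in C. sativus, where the mature allotetraploid libraries spanned all others but C. sativus 2.

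**Figure D3:**
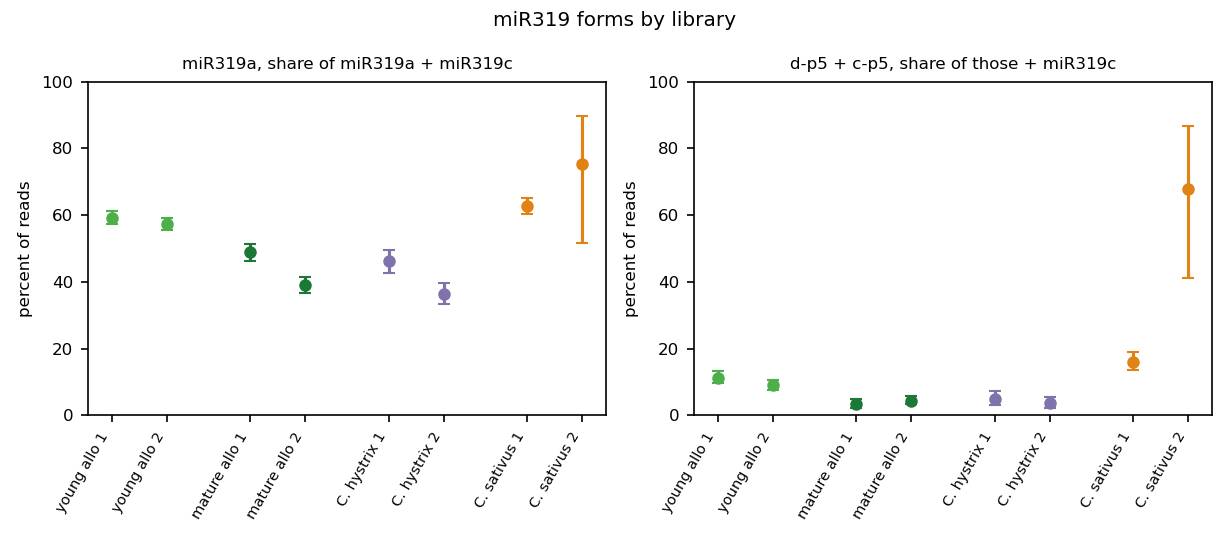
Left, miR319a as a percentage of miR319a plus miR319c; right, miR319d-p5 plus miR319c-p5 as a percentage of those plus miR319c; 1 point per library with 95% exact binomial intervals. Mature allotetraploid and C. hystrix leaves lie between 36.4% and 48.8% on the left, below the young leaves and C. sativus, and the wide bars of C. sativus 2 reflect 22.8 and 17.7 reads.

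Young against mature leaves of the allotetraploid addressed leaf age together with place on the plant. Neither family sum passed the test, against 3.49% of 86 families and unnumbered entries called, and both lay below the median of those 86, +0.51. miR159 was at 325951 and 424111 CPM on the family scale in young and 183888 and 542592 in mature leaves (log2 fold change +0.05, SE 0.84, Benjamini-Hochberg adjusted p = 0.975 by the quasi-likelihood test of edgeR). miR319 was at 7032 and 9835 CPM against 6338 and 6479 (+0.40, SE 1.01, adjusted p = 0.851). Among single sequences 0 of 11 members were called, against 1.92% of the 208 sequences tested, and 0 of 11 had an unadjusted p under 0.05 in edgeR or in DESeq2. The largest values belonged to 5′ side sequences. miR159a-p5, whose letters pair with miR159a in the hairpin, had a ratio of means of 3.16 between young and mature leaves (+1.66, SE 1.00, adjusted p = 0.545). For miR319c-p5 the ratio was 3.54 (+1.80, SE 1.24, adjusted p = 0.593), and its log2 value ran from 1.04 to 3.58 as single libraries were left out. The 20-nt miR159a differed by +0.04 (SE 0.81, adjusted p = 0.972). Both young libraries were above both mature ones for 4 members (miR159a-p5, miR319a, miR319d-p5 and miR319c-p5), against 34.6% of all sequences tested, and below them for miR159b ending in CC. In all, 5 of 11 members did not overlap, against 64.4% of all sequences, so separation of this kind was no more frequent among the members. With scaling that leaves out the RNA fragments the family sums were −0.35 for miR159 and −0.12 for miR319, so their direction depends on it. Sequences of that list lay on the other side, with 41 of 42 tested below 0 and a median of −1.01, against −0.03 over all tested sequences, and their part in the values above was not tested.

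The mature allotetraploid against C. hystrix addressed change from the wild parent. Here 9 of 11 members had a value above 0, against 118 of 208 sequences tested. The members include a length series of one sequence, so they are not separate signs of a direction. Their values lay between −0.20 and +0.95, with a median of +0.42 against +0.17 over all sequences tested. None was called by edgeR (0 of 11 at unadjusted p under 0.05, adjusted p = 0.979 for each), as was true of all tested sequences (0% called), and DESeq2 called 0 members with 0 at unadjusted p under 0.05. The largest was miR159b beginning with A, at 834.6 ± 236.5 CPM against 432.8 ± 371.6 (+0.95, SE 1.05, adjusted p = 0.979). It was +0.23 without C. hystrix 1 and +2.29 without C. hystrix 2, with no call in either. miR319a and miR319d-p5 were higher in both allotetraploid libraries than in either C. hystrix library, against 8.17% of all sequences tested, and these 2 of 11 members were all that did not overlap, against 18.8%. The family sums were +0.70 (SE 0.84) for miR159 and +0.81 (SE 1.02) for miR319, both with adjusted p = 0.969 by the quasi-likelihood test of edgeR (0% of families called, median +0.18).

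Against C. sativus, the cultivated parent, the calls depended on which C. sativus library was used. With both, 8 of 11 members were above 0, against 110 of 208 sequences tested, with a median of +0.82 against +0.16 over all. By edgeR 0 of 11 were called (0 at unadjusted p under 0.05), against 0.481% of all. DESeq2 called 0 members, with 1 at unadjusted p under 0.05. miR159b beginning with A averaged 834.6 ± 236.5 CPM against 196.2 ± 170 CPM in C. sativus (+2.08, SE 1.08, adjusted p = 0.784), and the difference was +1.40 without C. sativus 2. miR319c was at 3607 ± 207 against 1074 ± 1476 CPM (+1.75, SE 1.33, adjusted p = 0.866) and 20-nt miR159a at 349626 against 197796 CPM (+0.82, SE 0.82, adjusted p = 0.924). The 22-nt miR159b was on the other side (−0.56, SE 1.08, adjusted p = 0.927). In all, 4 of 11 members did not overlap, against 29.8% of all sequences: miR159b beginning with A, miR159b ending in CC and miR319c higher (19.2% of all) and miR159a-p5 lower. The family sums were +0.71 (SE 0.84) for miR159 and +0.90 (SE 1.02) for miR319, both with adjusted p = 0.876 by the quasi-likelihood test of edgeR (1.16% of families called, median −0.40).

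Without C. sativus 1, which left C. sativus 2 as the only library of its group, 6 of 11 members were called higher in the allotetraploid, and 24.5% of all sequences were called. They were 20-nt miR159a (+3.70), 21-nt miR159a (+3.22), miR159b beginning with A (+3.45), miR319a (+5.06), miR319c (+6.87) and miR319a-3p, with adjusted p of 0.00516 to 0.0372 by the quasi-likelihood test of edgeR. The lone library is assumed in that fit to vary like the other groups. Without C. sativus 2, 0 of 11 were called (0.481% of all). 20-nt miR159a was then at −0.08, miR319a at −0.30, miR319c at +0.77 and the 22-nt miR159b at +0.92. The 6 calls were thus made only where the library with 58% of RNA fragment reads stood alone for its species, and the part of those fragments was not tested.

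Between the parents, C. hystrix against C. sativus, no member and no family sum passed the test with both C. sativus libraries. The sums were +0.01 (SE 0.84) for miR159 and +0.09 (SE 1.01) for miR319, both with adjusted p = 0.997 by the quasi-likelihood test of edgeR (1.16% of families called, median −0.61). With scaling to listed-read totals they were −0.32 and −0.21. Of 11 members, 7 were above 0, against 98 of 208 sequences tested (median +0.47, against −0.11 over all). Of the members 0 were called (0 at unadjusted p under 0.05, also in DESeq2), against 0.962% of all. The largest value was that of miR319d-p5, at 53.08 ± 24.96 CPM in C. hystrix and 196.9 ± 249.9 in C. sativus (−1.91, SE 1.26, adjusted p = 0.952), where the C. sativus libraries stood at 373.6 and 20.24. It was −2.83 without C. sativus 2 and +1.34 without C. sativus 1. In 3 of 11 members the libraries did not overlap, against 31.2% of all sequences, with miR319c-p5 and miR159b ending in CC higher (18.8% of all) and miR159a-p5 lower in C. hystrix. Without C. sativus 1, 5 members were called higher in C. hystrix (22.6% of all sequences called), and without C. sativus 2, 0 were (0.481%).

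Compared with the mid-parent, taken as the average of the parents' log levels, the mature allotetraploid had no member called. The values of 8 of 11 were above 0, against 117 of 208 sequences tested, with a median of +0.71 against +0.14 over all. Of the members, 0 of 11 were called or had an unadjusted p under 0.05 in edgeR or DESeq2 (0% of all sequences called). miR159b beginning with A had the largest (+1.52, SE 0.87, adjusted p = 0.993 by the quasi-likelihood test of edgeR). The family sums were +0.71 (SE 0.71) for miR159 and +0.85 (SE 0.85) for miR319, both with adjusted p = 0.957 (0% of families called, median +0.09). Without C. sativus 1, 4 members were called higher than the mid-parent (9.62% of all called), namely 20-nt miR159a, miR319a, miR319c and miR319a-3p. Without C. sativus 2, 0 were called (0% of all), and miR159b beginning with A was at +1.18. The comparisons share libraries, so they are not independent of each other.

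**Figure D4:**
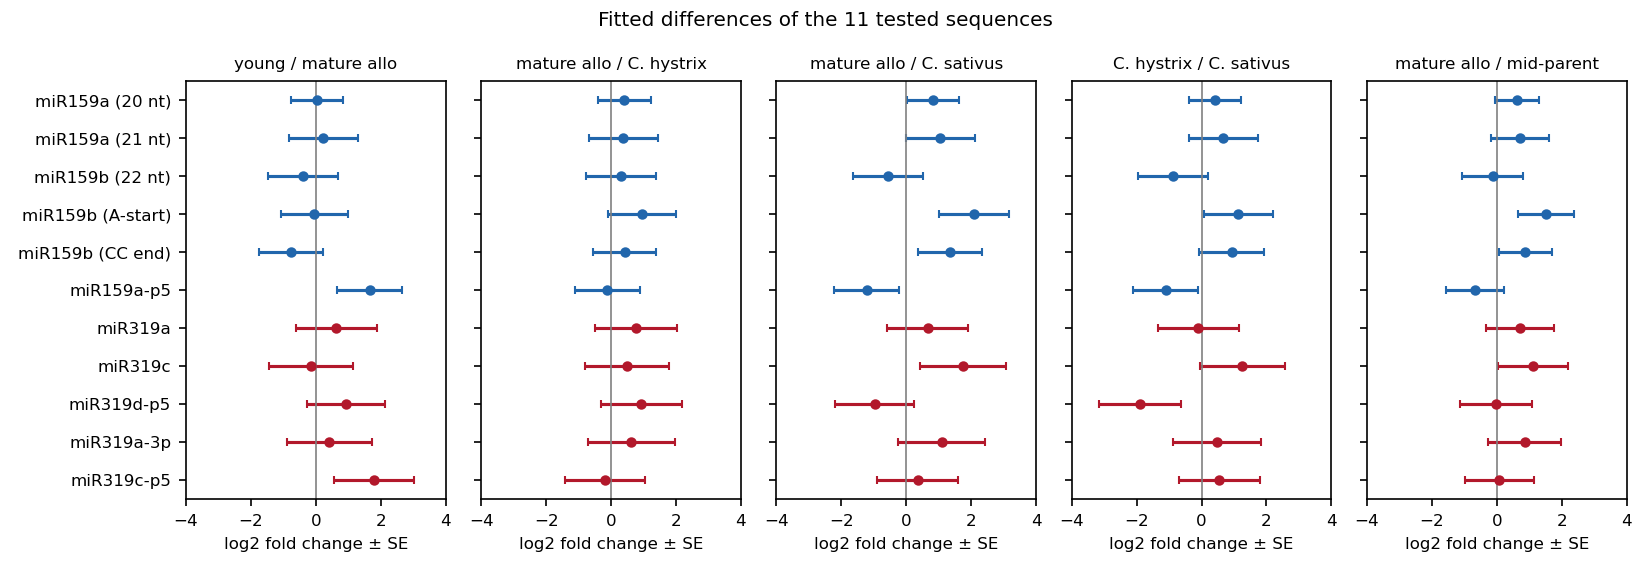
Log2 fold change with its SE, from edgeR's quasi-likelihood fit over all 8 libraries, of the 11 tested members (blue, miR159; red, miR319) in the 5 comparisons, as first over second group. The values lie between −1.91 and +2.08, and none passed the threshold.

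The 12 members that were too rare for a test had 0.5 to 45 reads over all libraries and at most 12 in any. All 12 had at least a fraction of a read in a young library, 7 in both young libraries, and 7 were at 0 in both mature allotetraploid libraries. Of all 733 entries, 562 and 513 were seen in the young libraries and 387 and 370 in the mature allotetraploid ones. More detection in young leaves was thus not particular to these members. The young libraries held 464306 and 377442 reads and the mature allotetraploid ones 207032 and 378234, and the part of depth in this was not tested. The most abundant was miR159c, of the second miR159 seed, at 11 and 9 reads in young, 4.5 and 12 in mature allotetraploid leaves, 3 and 1 in C. hystrix, with 3 and 1.5 in C. sativus. miR159b-p5, the 5′ strand of the chromosome 3 hairpin, had 6 and 7 reads in young leaves, 3 and 0 in C. hystrix, 3 and 1 in C. sativus and 0 and 0 in the mature allotetraploid, where 0 allows up to 13.4 and 10.4 CPM.

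Other miRNAs that act on leaf growth gave the setting. The list held miR164 (NAC factors of leaf margins), miR165 and miR166 (HD-ZIP III factors of leaf polarity), miR170 and miR171 (GRAS factors) and miR396 (growth-regulating factors), of which 38 of 78 sequences were tested. In young against mature leaves 27 were above 0 and 11 below, with a median of +0.79, and 0 were called by edgeR (7 at unadjusted p under 0.05), while the miR319 members tested had 4 of 5 above 0 and a median of +0.64. Over all 208 sequences tested, 103 were above 0 (median −0.03), 1.92% were called and 27 had an unadjusted p under 0.05 in edgeR. Against C. hystrix 19 were above and 19 below 0 with 0 called (0 at unadjusted p under 0.05), and against C. sativus 21 above and 17 below with 0 called (4 at unadjusted p under 0.05). Over all 208, in the same order, 118 and 110 were above 0, 0% and 0.481% were called, and 0 and 13 had an unadjusted p under 0.05. Between the parents 22 were above 0 and 1 was called higher in C. hystrix, miR166a, the main sequence of its family (+2.43, SE 0.56, adjusted p = 0.044 by the quasi-likelihood test of edgeR), which passed in 2 of 14 alternatives. Against the mid-parent 22 were above 0 and 0 were called (1 at unadjusted p under 0.05). Over all 208, 98 were above 0 between the parents, with 0.962% called and 14 at unadjusted p under 0.05. Against the mid-parent, 117 of 208 were above 0, with 0% called and 3 at unadjusted p under 0.05. Of the most abundant sequence of each family, miR396b had the lowest log2 fold change, with 978.2 and 1014 CPM against 1747 and 6793 CPM in mature leaves (−2.10, SE 1.15, adjusted p = 0.496), miR164a was at 385.2 and 419.8 CPM against 949.5 and 640 CPM (−0.98), and miR171c at 1232 and 927 CPM against 658.4 and 779.2 CPM (+0.59). miR166a differed by +0.27.

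The sequences most like the main members in profile were sought among the tested entries outside both families, by the root mean square difference of log2(CPM + 1) over the 8 libraries after centring each profile. For 20-nt miR159a they were miR167c (0.40), of the family that acts on auxin response factors, miR167c-p3 (0.45) and miR171m (0.50). The median over the others was 1.67. For miR319a the most alike were miR477b (0.44), a sequence of miR8155 (0.66) and miR2950-5p (0.66), against a median of 2.00. All 6 had their lowest level in C. sativus 2, as the main members had. miR8155 belongs to the RNA fragment list. Inside the families, the 21-nt miR159a lay 0.22 from the 20-nt form and the 22-nt miR159b 1.78 from it, farther than the median outside sequence, and miR319c lay 0.71 from miR319a.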

How the data were processed

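Values came from 1 table of listed miRNAs in 8 leaf libraries. Per the file headers it holds raw reads, used here as the authors' estimated counts (80.5% of values are whole within 1e-6, and the rest are fractional). A second block, the deposited normalized reads, is a signal scaled by the authors and was not tested. Of tools, the submitters' processing notes name Bowtie 0.12.8. Not given in the sources used here are the genome build, the miRBase release and the rule for reads with several loci. Protocols in the labels name TRIzol and oligo(dT) beads, without a separate small RNA step.

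The 843 lines hold 733 sequences of 18 to 25 nt, and 101 sequences stand on several lines, 0 with differing values, so each was used once. Value columns without a sample numbered 0. Reads were rounded and tested with edgeR 4.0.16 (R 4.3.3): filterByExpr over the 4 groups (208 of 733 kept, at least 99.47% of reads), TMM, robust quasi-likelihood fit over all libraries (4 residual degrees of freedom), two-sided, Benjamini-Hochberg over the 208, threshold 0.05. The SE is the log2 fold change divided by the root of F. Family sums, each sequence once, were tested among 86 rows. The script was tested on simulated data. Alternatives were RLE scaling, listed-read totals, scaling without RNA fragments (15 families listed, 12 in the table), no filter, DESeq2 1.42.0, a replicate block, every listed locus, and leaving out each library. Members that passed the filter are given in every library and the others by range and counts, and sequences are printed for the former and for members with a further seed. Of the tests, those of the largest values and the main sequences are given in full, a choice made after values were seen, as was that of the rare members named. Members, lists and tests were chosen with earlier results of these data known. The depth was 99196 to 464306 reads, so 3 reads are 7.6 to 17.7 CPM.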

Additional observations from a re-analysis of the deposited data

How the results depend on the processing

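The members' counts of calls stayed at 0 in each comparison under RLE scaling, listed-read totals, scaling without RNA fragments, no filter, DESeq2 and the replicate block. Leaving out single libraries gave 0 to 6 calls against C. sativus, 0 to 5 between the parents and 0 to 4 against the mid-parent, all above 0 without C. sativus 1. Of 374 alternative values for 26 results, 323 kept direction and side of the threshold, 27 changed direction, and 24 crossed the threshold, 12 of them without C. sativus 1 and 12 of them calls of miR166a lost.

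For young against mature leaves the miR159 sum, +0.05, became −0.20 with RLE scaling, −0.35 with scaling without RNA fragments, −0.15 with no filter, −0.20 in DESeq2 and −0.14 with every listed locus. Scaling without RNA fragments also turned the miR319 sum to −0.12 and 20-nt miR159a to −0.27. Listed-read totals turned the sums between the parents to −0.32 (miR159) and −0.21 (miR319). None of these passed the threshold. Scaling itself moved the median of all tested sequences, for young against mature leaves from −0.03 to −0.38 without RNA fragments, and between the parents from −0.11 to −0.99 with listed-read totals. Listed-read totals leave out the TMM factors, which were 1.25 and 2 for C. sativus and 0.813 and 0.77 for C. hystrix. Why the factors differ was not tested.

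Over fits without 1 library, the miR159 sum ran from −0.53 to 1.03 (young against mature), −0.28 to 1.28 (against C. hystrix), −0.27 to 2.36 (against C. sativus), −0.83 to 1.76 (parents) and −0.28 to 1.49 (mid-parent). The miR319 sum ran from 0.00 to 0.62, 0.56 to 1.10, −0.04 to 4.11, −0.85 to 3.27 and 0.38 to 2.47 in the same order. Against C. sativus, between the parents and against the mid-parent, both sums crossed the threshold without C. sativus 1 and in no other alternative. In that fit C. sativus 2 stands alone for its species. miR319c ran from 0.77 to 6.87 and miR159b beginning with A from 1.40 to 3.45 (both against C. sativus), and the latter from 0.23 to 2.29 against C. hystrix. The 20-nt miR159a ran from −0.42 to 0.73 (young against mature) and −0.08 to 3.70 (C. sativus), the 22-nt miR159b from −1.66 to 0.92 (C. sativus) and miR319d-p5 from −2.83 to 1.34 (parents).

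The labels give same-numbered libraries no link beyond the number. The correlation of their deviations over 208 sequences ran from −0.12 to 0.27 between groups, highest for young allotetraploid with C. hystrix. This check cannot exclude that some groups share a batch by number. With a replicate block, 9 of 208 sequences were called for young against mature leaves, against 4 without it. The replicate block gave 0 calls among members, and for the miR319 sum +0.44, +0.76, +1.16, +0.40 and +0.96 in the order above. Shares within a library do not depend on scaling. With 99196 reads, C. sativus 2 limits each comparison with C. sativus, and 2 libraries a group limit the rest.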
